A study of Homo sapiens with 9 samples.

Results

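The mRNAs of 10 genes that move, fuse and divide mitochondria were followed in human mesenchymal cells separated into pseudopodia and cell bodies. The 10 genes were TRAK1, RHOT1, RHOT2, MFN1, MFN2, OPA1, DNM1L, MFF, FIS1 and SYNJ2BP. They were chosen by symbol, with earlier results of these data known, so counts of them beside all genes are descriptive. All 10 were found among the 62709 genes with values and passed the expression filter that left 19426 genes for testing. The cells were hTERT-MSC, a line of mesenchymal stem cells from adipose tissue made immortal with telomerase. Per the labels' protocols, the cells were starved of serum overnight, detached, and placed on uncoated membranes with pores of 3 µm for 2 h. Serum-free medium with 50 ng/mL PDGF-BB, an attractant of mesenchymal cells, was then given below the membrane for 1 h. Protrusions scraped from the lower side gave the pseudopodia libraries, and the material scraped afterwards from the upper side gave the cell body libraries. Whole-cell libraries carry the same cell line and PDGF-BB labels, and how they were collected is not described separately. Every group had thus received PDGF-BB, and each had 3 libraries. Whether replicates were separate cultures is not said in the labels, so p-values reflect how far these libraries differ from each other, which may be technical.

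Mitochondria travel along microtubules on kinesin and dynein motors. The motors are held to the outer membrane by the Miro GTPases (RHOT1, RHOT2) through the TRAK adaptors. Outer membranes are fused by the mitofusins MFN1 and MFN2 and inner membranes by OPA1, while the dynamin DNM1L, recruited by receptors such as MFF and possibly FIS1, cuts the organelle. SYNJ2BP is an outer membrane protein with a PDZ domain that binds partners in the cytosol and on other organelles. In neurons it has been described, together with SYNJ2, as holding PINK1 mRNA on moving mitochondria.

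Library totals ran from 55469030 to 83894938 counts, and the biological coefficient of variation, the spread between replicates beyond counting, was 5.08% in whole cell, 17.6% in cell body and 32.0% in pseudopodia. All 9 mesenchymal marker genes were expressed in every library, with summed levels of 19270 to 23900 CPM (counts scaled with TMM factors to a common library size) in pseudopodia, 30790 to 36700 in cell body and 30700 to 31770 in whole cell. COL1A1 alone was at 14220 to 28170 CPM, while ALCAM went down to 6.69 CPM. In pseudopodia against cell body 8 of the 9 were called lower and 0 higher, beside 19.9% and 18.6% of all tested genes. The leukocyte marker PTPRC stayed at or below 0.408 CPM, and EPCAM, KDR, ADIPOQ and FABP4 lay at or near 0. Other genes of the same lists were present, among them CD34 (60.6 to 77.4 CPM), TEK (41.8 to 77.9), KRT8 (89.7 to 184.5), KRT18 (55.1 to 181.2) and PPARG (8.69 to 34.99). VWF reached 21.6 CPM and CDH5 15.1 CPM. The 13 mitochondrially encoded mRNAs took 5.68% to 6.35% of counts in pseudopodia, 2.58% to 3.00% in cell body and 4.38% to 4.93% in whole cell. Summed over 6 genes, nuclear long noncoding RNAs were lower in pseudopodia (268.0 to 285.6 CPM) than in cell body (354.6 to 455.9 CPM). Both fractions were below whole cell (888.5 to 925.5 CPM). In pseudopodia against cell body, 4 of the 6 were called lower and 1 higher, beside 19.9% and 18.6% of all tested genes. Against whole cell, 5 were lower and 1 higher in pseudopodia (33.1% and 27.9% of all genes). In cell body 5 were lower and 0 higher than in whole cell (20.5% and 18.1%). The part of these measures in the gene results was not tested.

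In pseudopodia against cell body, 3 of the 10 mRNAs rose, those of SYNJ2BP (8.46-fold), MFN2 (4.23-fold) and TRAK1 (1.64-fold), where 18.6% of all tested genes were called higher and 19.9% lower. None of the other 7 passed the test in that comparison, and the paralog pairs MFN1 and MFN2 and RHOT1 and RHOT2 had unlike levels. A stretch of the 3′ untranslated region of each called gene is shown here, because GA-rich elements in this region have been described in mRNAs that reach protrusions. Each is the 30-base window with the most purines (A or G) among windows with at least 8 G in the principal GENCODE 29 transcript. The paralog MFN1 and RAB13, an mRNA known for such elements, are shown for comparison, and capitals mark purines.
MFN2, chr1:12012201-12012230, plus strand: GGAGGAGtGGGAGtAGctcAGAGGGGAGGG
SYNJ2BP, chr14:70367076-70367105, minus strand: AGGGGGAGAAtGAAAGGGGcGAGAGctAAA
TRAK1, chr3:42224671-42224700, plus strand: AGGActGAAAGGAAAAAGGAtAGGGAAAAA
MFN1, chr3:179392768-179392797, plus strand: GAAGAGAtAAAAAtAGccAAAGAtAGGAGA
RAB13, chr1:153981919-153981948, minus strand: AGAAAGGAAAAAAAGGAAGAGAGAGGAAGG
The coordinates are those of GRCh38. The windows held 25 purines in MFN2, 26 in SYNJ2BP, 27 in TRAK1 and 25 in MFN1, so the called MFN2 and the uncalled MFN1 tied. The RAB13 window held 30. Among tested genes with a 3′ untranslated region within 1.5-fold of the same length, 49.1% had as many purines as MFN2, 61.9% as SYNJ2BP, 15.0% as TRAK1 and 60.8% as MFN1, against 0.115% for RAB13. By this count the windows of MFN2 and SYNJ2BP were common ones, and that of TRAK1 was less common but far more so than that of RAB13. SYNJ2BP stood out in another feature, since its untranslated region of 6495 bases was longer than that of 96.4% of 13287 genes (median 1143) and followed a coding sequence of only 438 bases.

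TRAK1 (ENSG00000182606, chromosome 3, 42013802 to 42225889, plus strand) encodes an adaptor that links mitochondria to kinesin and dynein. In the order of replicates 1 to 3, its mRNA was at 242.7, 286.5 and 220.0 CPM in pseudopodia, 122.0, 170.4 and 163.5 CPM in cell body, and 89.8, 89.1 and 94.4 CPM in whole cell. The groups did not overlap, and every pseudopodia library lay above every cell body library, which in turn lay above every whole-cell library. Through the TMM factors, the fold changes between groups are relative to the other genes of each library. A change in molecules per cell and a change in material per library therefore cannot be told apart. On the log2 scale TRAK1 rose by 0.72 ± 0.152 (SE) in pseudopodia against cell body (adjusted p = 0.00326, edgeR's quasi-likelihood test). It rose by 1.45 ± 0.154 against whole cell (adjusted p = 1.46e-05). Cell body was also above whole cell, by 0.74 ± 0.152 (adjusted p = 0.00348). On log2(TPM + 1), the rise over cell body was 0.43 and missed the threshold (adjusted p = 0.0512, limma).

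RHOT1 (ENSG00000126858, chromosome 17, 32142454 to 32253374, plus strand) and RHOT2 (ENSG00000140983, chromosome 16, 668086 to 674174, plus strand) encode the Miro GTPases that anchor the TRAK adaptors. RHOT1 was at 23.4, 23.3 and 10.4 CPM in pseudopodia, 23.0, 19.1 and 20.2 CPM in cell body, and 28.1, 29.8 and 28.8 CPM in whole cell. Pseudopodia replicate 3 was low, and the other pseudopodia libraries lay close to cell body replicate 1. RHOT2 was at 59.3, 53.4 and 75.7 CPM in pseudopodia, 68.2, 56.2 and 55.7 CPM in cell body, and 49.4, 52.2 and 47.3 CPM in whole cell. Here pseudopodia replicate 3 was the highest library. Between pseudopodia and cell body both genes overlapped, with log2 fold changes of -0.13 ± 0.257 for RHOT1 (adjusted p = 0.732) and 0.07 ± 0.151 for RHOT2 (adjusted p = 0.759, edgeR's quasi-likelihood test). Against whole cell both fractions lay below in every library for RHOT1 and above for RHOT2. These differences also missed the threshold, at -0.60 ± 0.258 (adjusted p = 0.0647) and 0.34 ± 0.151 (adjusted p = 0.0717) for pseudopodia by edgeR's test. Over 21 alternatives, RHOT1 was called lower than whole cell in pseudopodia in 8 and changed sign in 1. RHOT2 was called higher in 5 and changed sign in 2.

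MFN1 (ENSG00000171109, chromosome 3, 179347692 to 179394931, plus strand) encodes one of the GTPases that tether and fuse outer membranes. It was at 19.2, 27.4 and 10.5 CPM in pseudopodia, 37.4, 33.4 and 26.8 CPM in cell body, and 40.8, 39.6 and 40.4 CPM in whole cell. The fractions overlapped by a single pair, since pseudopodia replicate 2 was just above cell body replicate 3. The difference from cell body was -0.77 ± 0.285 on the log2 scale (adjusted p = 0.0578, edgeR's quasi-likelihood test). It passed the threshold when pseudopodia replicate 2 (-1.13, adjusted p = 0.00364) or replicate 3 (-0.48, adjusted p = 0.0386) was left out, and in DESeq2 (-0.76, adjusted p = 0.0279). It was also called lower with limma-voom (adjusted p = 0.00044), on log2(TPM + 1) and log2(TPM + 0.1) (limma, 0.0152 and 0.0174), with the replicate number as a block (0.0246) and after correction for GC content and length (-0.36, 0.0374), which makes 8 of the 21 alternatives. Against whole cell MFN1 fell by 1.08 ± 0.287 (adjusted p = 0.00855), a call lost after correction for GC content and length (-0.12, adjusted p = 0.434) and without the low-count filter (-0.99, adjusted p = 0.0537).

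MFN2 (ENSG00000116688, chromosome 1, 11980181 to 12013514, plus strand) encodes the other mitofusin, which also has a role at contacts between mitochondria and the endoplasmic reticulum. It was at 369.6, 349.0 and 476.2 CPM in pseudopodia, 83.1, 97.4 and 101.8 CPM in cell body, and 74.8, 70.7 and 75.7 CPM in whole cell. The lowest pseudopodia library was far above the highest of any other group. MFN2 rose by 2.08 ± 0.148 against cell body (adjusted p = 1.61e-06, edgeR's quasi-likelihood test) and by 2.43 ± 0.150 against whole cell (adjusted p = 3.86e-07). Over the 21 alternatives the rise over cell body lay between 1.76 and 2.17 and stayed past the threshold. Cell body and whole cell did not overlap, with 0.35 ± 0.143 between them, but this missed the threshold (adjusted p = 0.0719). In 8 of the 21 alternatives that difference was called.

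OPA1 (ENSG00000198836, chromosome 3, 193593144 to 193697823, plus strand) encodes the dynamin-like GTPase that fuses inner membranes and shapes cristae. It was at 26.9, 56.7 and 19.5 CPM in pseudopodia, 36.2, 44.4 and 18.96 CPM in cell body, and 58.5, 59.4 and 58.5 CPM in whole cell. Both fractions spread widely, while the whole-cell libraries lay within 1.02-fold of each other and above every other library. The log2 fold change of pseudopodia over cell body was 0.05 ± 0.399 (adjusted p = 0.93, edgeR's quasi-likelihood test). Against whole cell it was -0.77 ± 0.400 for pseudopodia (adjusted p = 0.123) and -0.83 ± 0.401 for cell body (adjusted p = 0.134). Without pseudopodia replicate 2 the first of these became -1.33 and was called (adjusted p = 0.00484).

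**Figure D1:**
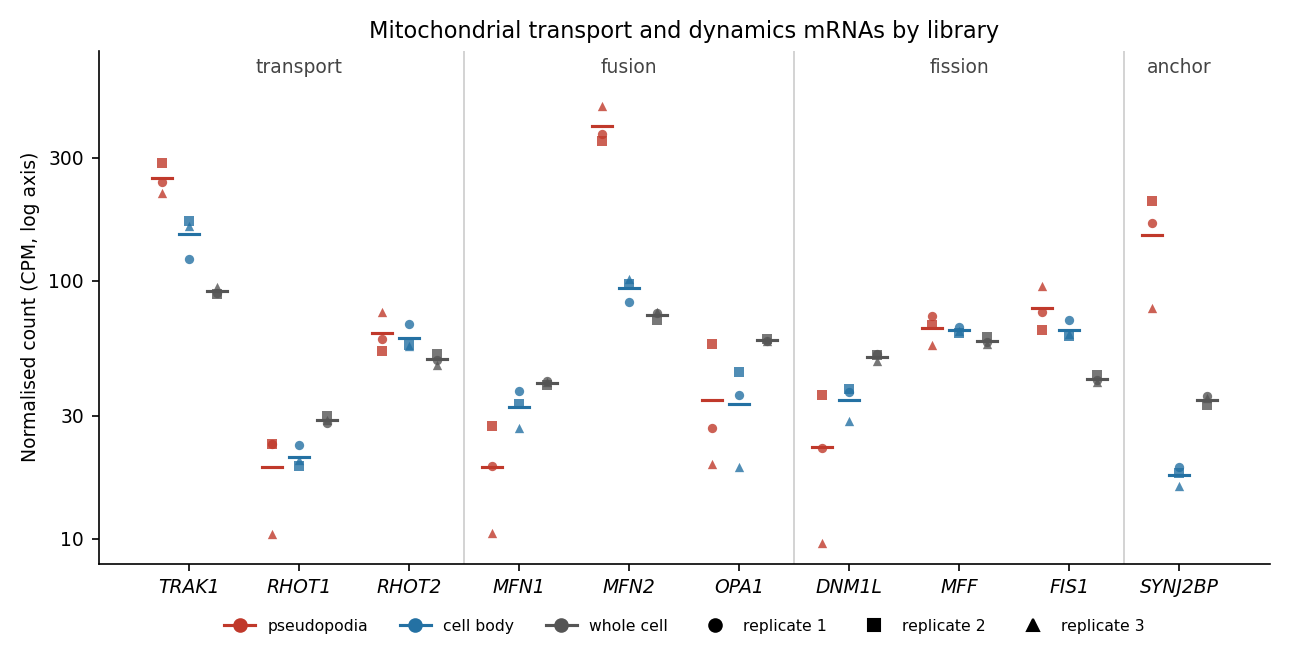
Normalised counts (CPM, log axis) of the 10 mRNAs in the 9 libraries, coloured by group, with symbols for the replicate and a bar for the group mean. MFN2, SYNJ2BP and TRAK1 stand above both other groups in every pseudopodia library, and the whole-cell libraries lie close together for each gene.

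None of the 3 fission members (DNM1L, MFF, FIS1) was called between pseudopodia and cell body in edgeR's test on all libraries, while limma-voom called DNM1L lower and MFF and FIS1 higher. DNM1L (ENSG00000087470, chromosome 12, 32679200 to 32745650, plus strand) encodes the dynamin that constricts mitochondria. It was at 22.5, 35.97 and 9.61 CPM in pseudopodia, 36.9, 38.1 and 28.7 CPM in cell body, and 52.1, 51.5 and 49.0 CPM in whole cell. Pseudopodia spread 3.74-fold between their lowest and highest library, the widest of the 10 genes. The difference from cell body was -0.61 ± 0.375 on the log2 scale (adjusted p = 0.235, edgeR's quasi-likelihood test) and was called without pseudopodia replicate 2 (-1.11, adjusted p = 0.0164). Against whole cell DNM1L fell by 1.16 ± 0.378 (adjusted p = 0.0238). That call was lost without pseudopodia replicate 1 (adjusted p = 0.0605), without whole-cell replicate 1, 2 or 3 (0.0614, 0.0603 and 0.051), with only the 6 libraries compared (adjusted p = 0.0656), after correction for GC content and length (-0.62, adjusted p = 0.0513) and without the low-count filter (-1.07, adjusted p = 0.128).

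MFF (ENSG00000168958, chromosome 2, 227325151 to 227357836, plus strand) encodes the tail-anchored receptor that recruits DNM1L. It was at 73.4, 67.3 and 56.5 CPM in pseudopodia, 66.5, 62.8 and 63.8 CPM in cell body, and 57.9, 60.8 and 57.1 CPM in whole cell. The pseudopodia libraries ran from just below to just above all others. MFF gave the smallest estimate of the 10 between the fractions, 0.03 ± 0.124 (adjusted p = 0.867, edgeR's quasi-likelihood test), and 0.17 ± 0.124 against whole cell (adjusted p = 0.266). After correction for GC content and length it was called higher in pseudopodia, at 0.32 against cell body (adjusted p = 0.0222) and 0.77 against whole cell (adjusted p = 6.47e-05).

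FIS1 (ENSG00000214253, chromosome 7, 101239458 to 101252316, minus strand) encodes a small tail-anchored adaptor of the outer membrane. It was at 75.6, 64.7 and 95.4 CPM in pseudopodia, 70.7, 61.2 and 62.4 CPM in cell body, and 41.2, 43.1 and 40.6 CPM in whole cell. The fractions overlapped, and each lay above every whole-cell library. FIS1 rose over whole cell in both, by 0.92 ± 0.150 in pseudopodia (adjusted p = 0.000324, edgeR's quasi-likelihood test) and by a smaller 0.64 ± 0.149 in cell body (adjusted p = 0.00677). Between the fractions the value was 0.28 ± 0.149 (adjusted p = 0.164), called without pseudopodia replicate 2 (0.40, adjusted p = 0.0346).

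SYNJ2BP (ENSG00000213463, chromosome 14, 70366496 to 70417061, minus strand), the outer membrane anchor described above, had the widest range of group means. It was at 168.1, 203.5 and 78.2 CPM in pseudopodia, 19.04, 18.1 and 16.1 CPM in cell body, and 35.6, 33.1 and 35.0 CPM in whole cell. No library overlapped another group, although pseudopodia replicate 3 was well below the other pseudopodia libraries. SYNJ2BP rose by 3.08 ± 0.305 against cell body (adjusted p = 4.17e-05, edgeR's quasi-likelihood test) and by 2.12 ± 0.293 against whole cell (adjusted p = 0.000195). Cell body fell by 0.96 ± 0.285 against whole cell (adjusted p = 0.0246), a call lost when any 1 cell body or whole-cell library was left out (adjusted p from 0.0537 to 0.0838) and without the low-count filter (0.129). A readthrough gene with COX16 shares 10.1% of its exon bases and had 10 counts over all libraries against 41712 for SYNJ2BP, and summing the pair left the log2 fold change at 3.08. Exon overlap with other genes was at most 4.0% for the other members (RHOT1, OPA1, DNM1L and MFF), whose partners had 31 to 642 counts in total.

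Counted over the 10 genes, pseudopodia against cell body gave 3 higher and 0 lower, beside 18.6% and 19.9% of all tested genes. At an unadjusted p under 0.05 in edgeR's test 1 gene was lower (MFN1), and DESeq2 called the same 1. The median log2 fold change was 0.06, against -0.05 over all tested genes. The same 3 had every pseudopodia library above every cell body library, as had 22.6% of all tested genes, and 0 had every one below (24.5%). Pseudopodia against whole cell gave 4 higher (MFN2, SYNJ2BP, TRAK1, FIS1) and 2 lower (MFN1, DNM1L), beside 27.9% and 33.1% of all genes. Every library was above whole cell for 5 genes (31.1% of all genes) and below for 4 (38.9%), RHOT2 being added to those above and RHOT1 and OPA1 to those below. The count called lower was 0 after correction for GC content and length, beside 5401 of all 19426 tested genes. It was 4 on log2(TPM + 1), beside 9687 of all 19426. Cell body against whole cell gave 2 higher (TRAK1, FIS1) and 1 lower (SYNJ2BP), beside 18.1% and 20.5%. Without overlap, 5 of the 10 were above whole cell in cell body (30% of all genes) and the other 5 below (34.9%). On log2(TPM + 1), the split over all tested genes moved towards lower calls, from 3605 higher and 3870 lower to 2310 and 5907 for pseudopodia against cell body. The comparisons share libraries, so their values for a gene are not independent of each other.

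**Figure D2:**
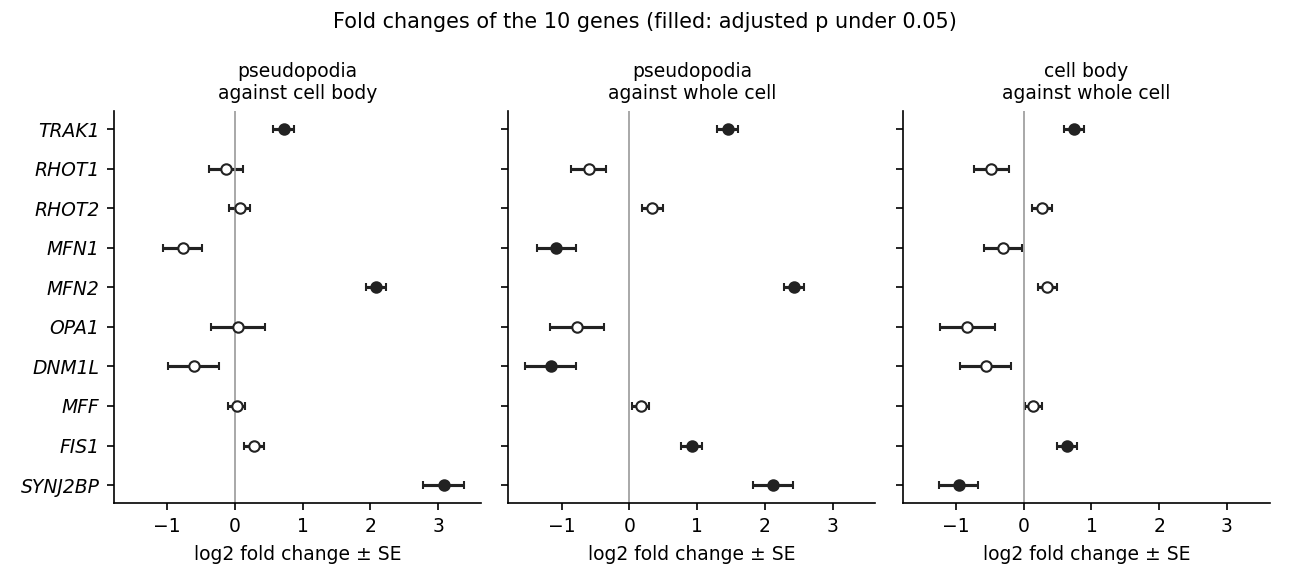
Log2 fold changes with their standard errors for the 10 genes in 3 comparisons, filled where the adjusted p of edgeR's quasi-likelihood test was under 0.05. SYNJ2BP (3.08), MFN2 (2.08) and TRAK1 (0.72) are filled between pseudopodia and cell body, and 6 genes are filled between pseudopodia and whole cell.

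A plain mixture of both fractions would be expected to have levels between theirs, but the whole-cell level mostly did not lie there. How the whole-cell libraries were collected is not described separately. Differences from whole cell therefore need not be differences between parts of the same cells, and their cause was not tested. The whole-cell mean was below both fractions for 5 genes (TRAK1, RHOT2, MFN2, MFF and FIS1), above both for 4 (RHOT1, MFN1, OPA1 and DNM1L), and between them for SYNJ2BP alone. It thus lay outside the fractions for 9 of the 10 genes, beside 74.8% of all tested genes. The 5 genes that were below had transcripts with 43.4% to 64.1% GC and the 4 above had 38.2% to 42.6%. Over all tested genes the median GC was 53.2% where whole cell was below both fractions and 44.6% where it was above both.

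Spread within pseudopodia followed GC content too. Replicate 3 was the lowest pseudopodia library for 7 genes, whose transcripts had at most 51.8% GC, and the highest for 3, RHOT2, MFN2 and FIS1, with at least 53.6%. From replicate 2 to replicate 3 the CPM differed by a factor of 0.267 for DNM1L, 0.345 for OPA1, 0.384 for SYNJ2BP, 0.385 for MFN1 and 0.447 for RHOT1, and by 1.36 for MFN2, 1.42 for RHOT2 and 1.48 for FIS1. Pearson's r between GC content and the log2 of this ratio was 0.88 over the 10 genes and 0.60 over 18675 tested genes. Genes are not independent replicates, and these points share 2 libraries, so no p is given. In whole cell the highest library exceeded the lowest by 1.02-fold to 1.10-fold. The pseudopodia values of RHOT1, MFN1, OPA1 and DNM1L therefore carried the widest error, together with SYNJ2BP. The rises of SYNJ2BP, MFN2 and TRAK1 over cell body were called after correction for GC content and length, and without any 1 library.

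**Figure D3:**
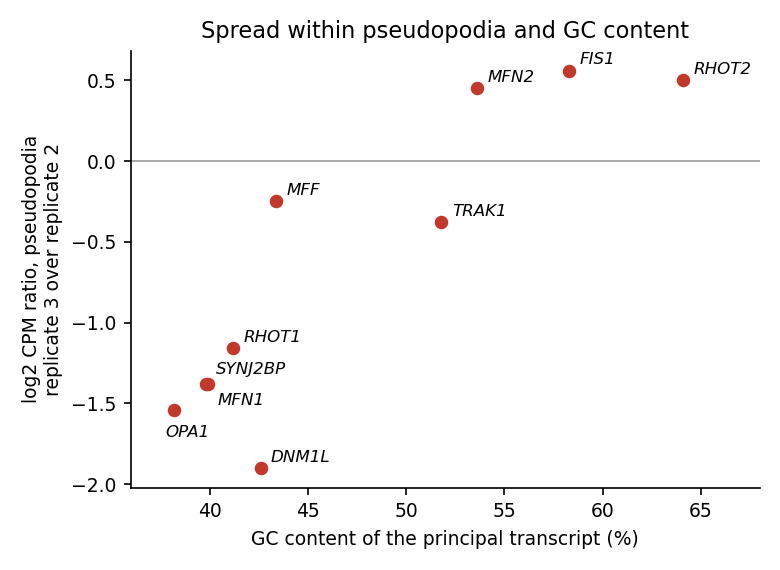
Log2 ratio of CPM between pseudopodia replicates 3 and 2 (vertical axis) against the GC content of the principal transcript in percent (horizontal axis), 1 point per gene. RHOT2, MFN2 and FIS1 lie above 0 and the other 7 genes below, down to -1.90 for DNM1L.

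Levels can be compared between genes only per length, on the deposited TPM scale. In whole cell, FIS1 was highest at 108.6 ± 3.32 TPM (SD, n = 3), followed by RHOT2 (44.9 ± 2.28) and MFF (44.3 ± 1.43), which overlapped. TRAK1 (39.4 ± 1.28) was set apart from its neighbours. MFN2 (33.7 ± 1.71), MFN1 (31.7 ± 1.18), OPA1 (30.4 ± 0.587) and DNM1L (29.5 ± 1.48) formed a run in which neighbours overlapped. SYNJ2BP (22.9 ± 1.34) and RHOT1 (20.7 ± 0.319) were lowest, without overlap with DNM1L or each other.

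In pseudopodia the order was another one. FIS1 (148.1 ± 23.1 TPM) and MFN2 (131.5 ± 17.0) overlapped at the top, above TRAK1 (78.8 ± 13.9) and SYNJ2BP (73.0 ± 33.7), which overlapped each other. RHOT2 (41.1 ± 5.79), which SYNJ2BP also overlapped, and MFF (36.2 ± 5.75) came next. Below MFF, without overlap, were OPA1 (13.1 ± 7.99), MFN1 (11.01 ± 5.25), RHOT1 (10.0 ± 4.19) and DNM1L (9.71 ± 5.94), each overlapping its neighbours among these 4. In cell body FIS1 led at 149.6 ± 12.2 TPM, and SYNJ2BP was last at 10.4 ± 0.773, below every library of RHOT1 (13.2 ± 1.32). SYNJ2BP thus moved from the last place of the 10 in cell body to the fourth in pseudopodia, and MFN2 from the fifth to the second.

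A ratio of TPM within a library does not depend on how libraries are scaled to each other. MFN1 and MFN2 were near parity in whole cell, with ratios of 0.939, 0.964 and 0.919. The ratio was 0.774, 0.589 and 0.453 in cell body, and 0.0895, 0.135 and 0.0381 in pseudopodia, where MFN2 exceeded MFN1 by 7.40-fold to 26.3-fold. The groups did not overlap, and pseudopodia replicates differed among themselves by more than those of the other groups. RHOT1 to RHOT2 was 0.450, 0.452 and 0.483 in whole cell, 0.267, 0.270 and 0.287 in cell body, and 0.312, 0.345 and 0.109 in pseudopodia. Both fractions were below whole cell, and pseudopodia lay on either side of cell body. These ratios were not corrected for GC content, which was 39.9% in MFN1, 53.6% in MFN2, 41.2% in RHOT1 and 64.1% in RHOT2. After correction for GC content and length, the log2 fold change of RHOT1 against whole cell was 0.00011 in cell body and 0.21 in pseudopodia. In pseudopodia against whole cell, MFN1 was then at -0.12, while MFN2 was at 1.93 or more under all 21 alternatives. The part of GC content in the ratios was not tested. TRAK1 to its paralog TRAK2 was 1.76, 2.17 and 1.73 in cell body, 0.730, 0.777 and 0.780 in whole cell, and 0.121, 0.143 and 0.101 in pseudopodia. TRAK1 was thus the more abundant adaptor mRNA in cell body and the less abundant in pseudopodia. With 3 libraries against 3, an exact permutation test cannot go below a two-sided p of 0.1, so none was run on these ratios.

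**Figure D4:**
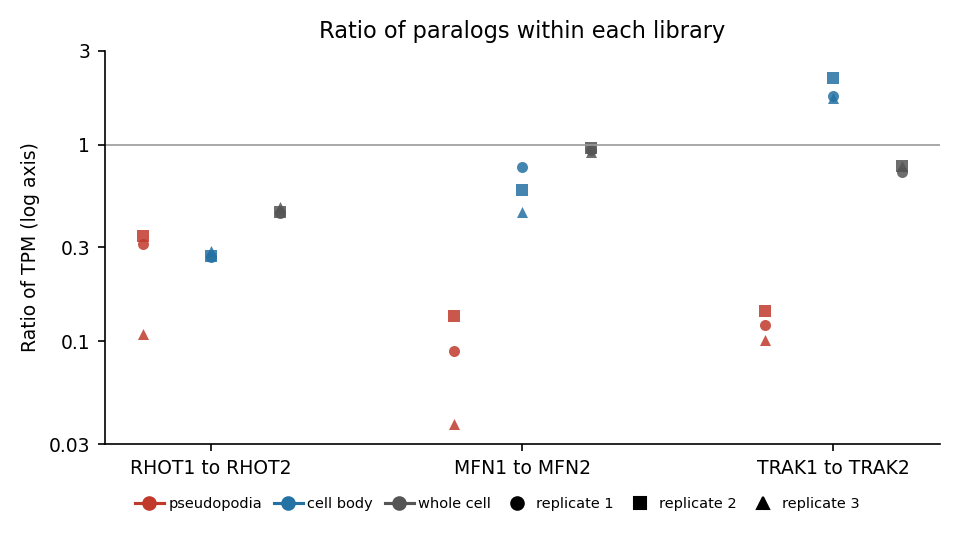
Ratio of TPM (log axis) of RHOT1 to RHOT2, MFN1 to MFN2 and TRAK1 to TRAK2 within each of the 9 libraries, coloured by group with symbols for the replicate. MFN1 to MFN2 is 0.0381 to 0.135 in pseudopodia and 0.919 to 0.964 in whole cell, and TRAK1 to TRAK2 is above 1 only in cell body.

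Of 102 related genes in 6 lists, 100 were tested. In pseudopodia against cell body 32 were higher and 15 lower, with a median log2 fold change of 0.12, beside 18.6% higher and 19.9% lower of all tested genes and a median of -0.05. On log2(TPM + 1) the counts were 17 and 27, beside 2310 higher and 5907 lower of all 19426 tested genes. Which direction prevailed in the lists thus differed between edgeR's fit and limma on log2(TPM + 1), where no TMM factors were applied. Calls of all genes also moved towards lower there. The parts of library scaling and of the test were not tested. With only the 6 libraries compared, 21 were higher, beside 2613 of all 17827 genes tested there. Of the 20 transport genes, 12 rose and 5 fell. TRAK2, the paralog of TRAK1, was at 1398, 1393 and 1512 CPM in pseudopodia beside 48.3, 54.6 and 65.6 CPM in cell body, a log2 rise of 4.67 ± 0.152 (adjusted p = 9.45e-09, edgeR's quasi-likelihood test). KIF5B, the kinesin heavy chain that TRAK adaptors bind, was at 58.4, 190.1 and 111.3 CPM in pseudopodia, 21.8, 41.6 and 17.1 CPM in cell body, and 145.5, 133.9 and 143.2 CPM in whole cell. It rose over cell body by 2.16 ± 0.440 (adjusted p = 0.00406), and cell body was below whole cell, with a log2 fold change of -2.39 ± 0.444 (adjusted p = 0.00316). OGT, which attaches O-GlcNAc to TRAK1 among many other proteins, fell from 152.8 ± 26.3 to 35.3 ± 1.59 CPM (-2.11 ± 0.143, adjusted p = 1.24e-06).

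Of the 18 other fission genes, 4 rose and 3 fell in pseudopodia against cell body, where 18.6% of all tested genes were higher and 19.9% lower. SPIRE1, an actin nucleator with a mitochondrial isoform, rose by 1.75 ± 0.205 (adjusted p = 5.56e-05, edgeR's quasi-likelihood test), and the outer membrane ubiquitin ligase MUL1 fell by 1.10 ± 0.163 (adjusted p = 0.000316). MIEF1, a DNM1L receptor, averaged 68.6 ± 16.2 CPM in pseudopodia beside 57.8 ± 11.9 in cell body (0.25 ± 0.188, adjusted p = 0.329). It rose over whole cell (35.4 ± 0.691 CPM) in both fractions, as FIS1 did. Of the 16 genes of fusion and inner membrane processing, 4 rose and 3 fell. HUWE1, a ubiquitin ligase with MFN2 among its substrates, rose from 250.1 to 950.1 CPM (1.93 ± 0.201, adjusted p = 2.33e-05), and TMEM135 fell by 0.81 ± 0.180 (adjusted p = 0.00416).

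Of the 15 genes of cristae, 2 rose and 3 fell, led by CHCHD10 (0.64) and APOOL (-0.89), again beside 18.6% higher and 19.9% lower of all tested genes. Of the 12 tested import genes, 3 rose and 0 fell, led by TOMM40L (0.67), and 1 of the 12 was lower at an unadjusted p under 0.05 in edgeR's test, with 0 lower called by DESeq2. These 3 named genes had low levels, with group means of 3.21 to 12.0 CPM in pseudopodia and cell body. Each call was lost in edgeR's test with only the 6 libraries compared (adjusted p = 0.052, 0.0907 and 0.0783). CHCHD10 was at 0.20 after correction for GC content and length (adjusted p = 0.255) and 0.32 on log2(TPM + 1) (adjusted p = 0.0656). TOMM40L was at 0.30 on log2(TPM + 1) (adjusted p = 0.161), and its call was lost when any 1 cell body library was left out (adjusted p from 0.0569 to 0.0666). The call of APOOL was lost without pseudopodia replicate 1 (adjusted p = 0.0713) and without cell body replicate 2 or 3 (0.0744 and 0.0623). Of the 19 tested genes of mitophagy and outer membrane anchors, 7 rose and 1 fell. The one that fell was SQSTM1, an autophagy receptor (-0.50 ± 0.143, adjusted p = 0.0172, edgeR's quasi-likelihood test), a call lost without pseudopodia replicate 1 (adjusted p = 0.0689) or cell body replicate 3 (adjusted p = 0.0679). PINK1, the kinase that marks damaged mitochondria, was at 254.8, 234.4 and 354.0 CPM in pseudopodia, 38.3, 38.7 and 39.2 CPM in cell body, and 37.1, 35.8 and 34.4 CPM in whole cell. It rose over cell body by 2.86 ± 0.162 (adjusted p = 3.98e-07). SYNJ2, the phosphatase that binds SYNJ2BP, was at 232.1, 259.6 and 217.4 CPM in pseudopodia beside 95.7, 152.8 and 155.6 CPM in cell body, a rise of 0.81 ± 0.176 (adjusted p = 0.00371). SYNJ2BP, SYNJ2 and PINK1 were thus each called higher in pseudopodia than in cell body, and each was also called higher than in whole cell.

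**Figure D5:**
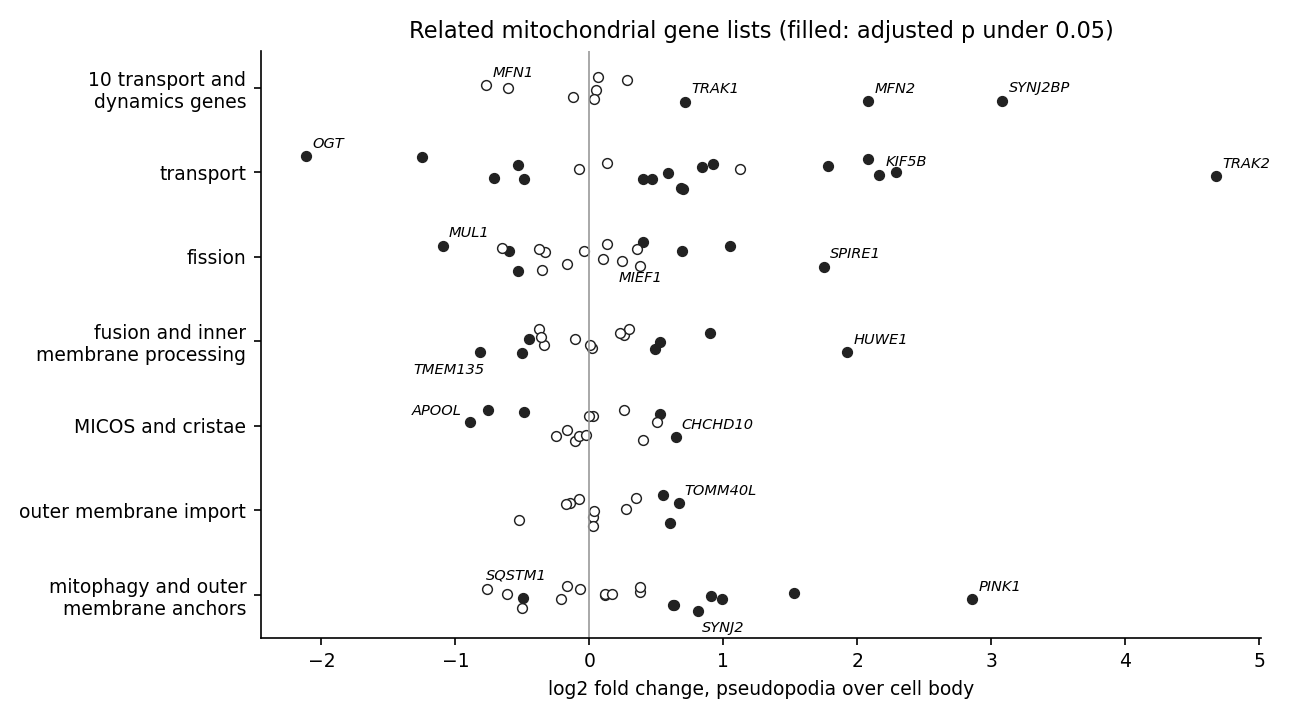
Log2 fold change of pseudopodia over cell body (horizontal axis) for the 10 genes and for 6 lists of related mitochondrial genes, 1 point per gene with vertical jitter for legibility, filled where the adjusted p was under 0.05. TRAK2 (4.67), SYNJ2BP (3.08) and PINK1 (2.86) lie farthest to the right and OGT (-2.11) farthest to the left.

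Against whole cell, 54 of the 100 tested list genes were higher in pseudopodia and 13 lower, beside 27.9% and 33.1% of all tested genes. In cell body 37 were higher and 11 lower, beside 18.1% and 20.5%. The import list held 10 higher and 1 lower of 12 in pseudopodia, and 9 higher and 0 lower in cell body (0 lower also at an unadjusted p under 0.05 in edgeR's test and by DESeq2), while the transport list held 10 higher and 4 lower in pseudopodia and 2 higher and 5 lower in cell body. On log2(TPM + 1) the 100 genes gave 28 higher and 32 lower in pseudopodia against whole cell, beside 3227 higher and 9687 lower of all 19426 tested genes. The 37 higher in cell body became 23 without whole-cell replicate 1 or 3, and 22 on log2(TPM + 1). The 11 lower became 5 or 6 when any 1 cell body or whole-cell library was left out, and 19 without pseudopodia replicate 3. Calls over all tested genes moved alike. The 3521 higher became 2338 and 2436 without whole-cell replicate 1 or 3, and 2643 on log2(TPM + 1). The 3980 lower became 2711 to 3315 without 1 cell body or whole-cell library, and 5411 without pseudopodia replicate 3.

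The genes whose levels ran most like those of the 2 widest-ranging members were found over the 9 libraries among 19425 other tested genes, by Pearson's r of log2 CPM. For SYNJ2BP they were PALLD (0.997), NFYB (0.995) and NIFK-AS1 (0.994). PALLD, an actin-bundling protein, was at a mean of 1268 CPM in pseudopodia, with 163.3 in cell body and 309.6 in whole cell, the same order of groups as SYNJ2BP. For MFN2 they were GOLGA2 (0.999), a Golgi matrix protein, UBTF (0.999), a factor of ribosomal RNA transcription, and SYNE3 (0.998), a nesprin of the nuclear envelope. GOLGA2 was at 708.7 CPM in pseudopodia, with 183.0 in cell body and 154.8 in whole cell. With 3 groups that stand apart, these r values mostly describe the differences between groups.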

How the data were processed

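RNA sequencing gave 9 libraries, 3 each of pseudopodia, cell body and whole cell. The authors deposited whole-number counts for each gene, made with featureCounts per the labels, and a TPM table for each library. The submitters' processing notes name DESeq2 and the build GRCh38. For the aligner, annotation, strand setting and versions, details were not given in the sources used here. Without a known strand setting, antisense partners cannot be told apart. Within each gene, the ratio of count to TPM followed 1 constant per library over 10750 genes with over 100 counts in all libraries. One line of the count table held no values and was left out.

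All 9 libraries entered 1 edgeR 4.0.16 fit (R 4.3.3, quasi-likelihood, robust, TMM factors, filter by group, no covariates) over 19426 genes, with Benjamini-Hochberg adjusted p under 0.05 called. As the spread differed between groups, p-values may be too small for pseudopodia. On counts simulated for pseudopodia against cell body over 18960 genes, 1.49%, 49.3% and 95.5% of genes changed 1.5-fold, 2-fold and 4-fold were recovered, with 12 unchanged genes called. The simulation gave each gene the same spread in all groups, unlike the data, so these rates need not hold for the data. Standard errors come from the test statistic. Replicates differed by more than counting noise (chi-square per gene at least 5.04).

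Alternatives were DESeq2 1.42.0, limma 3.58.1 (voom with sample weights, and log2 of TPM with pseudocounts of 1 and 0.1), other scalings and filters (at least 5 CPM in 3 libraries, or none), a GC content and length correction (available for 96.1% of tested genes), a replicate block, and each library left out. Positions, transcripts and sequences came from GENCODE 29 on GRCh38. The members and lists were chosen with earlier results of these data known. All members were named, and of each list TRAK2, KIF5B, MIEF1, PINK1, SYNJ2 and the called genes with the highest and lowest log2 fold change in pseudopodia against cell body.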

Additional observations from a re-analysis of the deposited data

How the results depend on the processing

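Each of the 10 genes was refitted under up to 22 alternatives, which gave 633 values. Of these, 528 kept their direction and side of the threshold, 58 passed it anew, 18 no longer passed it, and 29 changed sign, none of which was a called value. Between pseudopodia and cell body, the count of members higher was 2 to 4 and that lower 0 to 1 under all alternatives except limma-voom (5 and 2) and leaving out a library. It was 1 lower with DESeq2, log2(TPM + 1), log2(TPM + 0.1), and GC content and length correction. Leaving out each library gave 3 to 4 higher and 0 to 2 lower. Against whole cell, pseudopodia had 0 lower without the low-count filter and after GC content and length correction, 1 with only the 6 libraries compared, and 4 with limma-voom, log2(TPM + 1) and log2(TPM + 0.1). Over all genes tested, 6495 of 37196, 5401 of 19426, 6064 of 19081, and 8224, 9687 and 9571 of 19426 were lower, in the same order. Leaving out each library gave 4 to 5 higher and 1 to 4 lower. For cell body against whole cell the counts were 4 higher and 5 lower with limma-voom, 4 and 4 in a fit of the 6 libraries alone, 4 higher after GC content and length correction, and 0 lower without the low-count filter. Over all genes, the 6-library fit called 5270 higher and 5464 lower of 18842, and 3666 of 37196 were lower without the filter. Leaving out each library gave 2 to 4 higher and 0 to 3 lower. The causes were not tested.

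Signs changed as follows. Pseudopodia against cell body gave RHOT1 0.20 (limma-voom) and 0.21 (GC content and length correction), RHOT2 -0.22, -0.23 (log2 of TPM with 1 and 0.1) and -0.13 (GC), OPA1 -0.09 (limma-voom), -0.27 and -0.29 (TPM), MFF -0.01 (filter of 5 CPM), -0.26 (both TPM) and -0.02 (6 libraries), FIS1 -0.02 (both TPM), and MIEF1 -0.03 (limma-voom) and -0.04 (both TPM). Leaving out a library gave -0.30 to 0.17 for RHOT1, -0.09 to 0.20 for RHOT2, -0.52 to 0.33 for OPA1 and -0.06 to 0.13 for MFF. Pseudopodia against whole cell gave RHOT1 0.21, OPA1 0.27 and KIF5B 0.91 (GC), and RHOT2 -0.13 and -0.14 and MFF -0.30 (TPM), and KIF5B ran from -0.73 to 0.11 with a library left out. Cell body against whole cell gave RHOT1 0.00011, MFN1 0.24 and PINK1 -0.02 (GC), and MFF -0.04 and PINK1 -0.06 (both TPM). The TPM scale moved the median log2 fold change of all genes in pseudopodia against cell body from -0.0456 to -0.17 and -0.311, and GC content and length correction moved it from -0.117 to 0.114 against whole cell, where 7007 genes were then higher and 5401 lower (5412 and 6430 before). Over all tested genes, limma-voom called 5175 higher and 5949 lower in pseudopodia against cell body. On log2(TPM + 1) there were 3227 higher and 9687 lower in pseudopodia against whole cell. For cell body against whole cell (3521 higher and 3980 lower) there were 5722 and 6245 with limma-voom, 2643 and 5898 on log2(TPM + 1), 5569 and 3755 after GC content and length correction, and 2338 and 2711 without whole-cell replicate 1.

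Same-numbered libraries' deviations from their group means correlated at -0.0807 to 0.0901, and not every library correlated best with its own number. This cannot decide whether replicate numbers pair the libraries, which the labels do not say. Deviations in pseudopodia also followed GC content (r = -0.56 in replicate 2 and 0.57 in replicate 3). With a replicate block, MFN1 was called lower in pseudopodia than in cell body (1 lower), pseudopodia had 4 lower against whole cell and cell body 2 lower, and the counts higher were 3, 4 and 2 as without it.

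Counting noise was small at 55469030 counts or more. The spread between 3 pseudopodia libraries limits small differences, with a coefficient of variation of 32.0%.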
